A study of Homo sapiens with 4 samples.

Results

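Skipped exons that lie wholly in the 5′ untranslated region (5′ UTR, the leader of the mRNA ahead of the start codon) were compared between siSNRPB2 and siCtrl MDA-LM2 cells. An exon belonged to this set when its borders equalled an exon of GENCODE release 29 that ended before the start codon of a protein-coding transcript and was coding in none. It also needed at least 20 informative reads in each of the files, 1 per group, meaning reads that fit only the isoform with the exon (inclusion reads) or only the isoform without it (skipping reads). These conditions were met by 1441 of the 18682 tested skipped exons, in 954 genes. At any depth 3763 such exons were in both files, and 2322 of them stayed below the read minimum. The 143 exons just above it (20 to 24 reads in the shallower file) had a median absolute ψ difference of 0.06 in the authors' deposited table, and the 199 just below it (15 to 19 reads) also had 0.06.

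MDA-LM2 is a lung-metastatic derivative of the MDA-MB-231 breast cancer line. Cells were transfected by lipofection with siRNA against SNRPB2, for which the labels give 2 selected siRNAs and a knockdown by qPCR of more than 95%, or with a control siRNA (siCtrl), and total RNA was taken 48 h later. Each group had 2 libraries, without a statement in the labels that they came from separate cultures, and the deposited values are 1 per exon and group. All values below therefore compare 1 siSNRPB2 value with 1 siCtrl value, with no replicate spread, SD or n.

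SNRPB2 is the gene of U2B″, which binds the RNA of the U2 particle (U2 snRNP), the part of the spliceosome that pairs with the branch point near the 3′ end of introns. Exons of the leader do not code for the protein, but they set what the scanning ribosome meets ahead of the start codon. An ATG in a leader can open an upstream open reading frame, and such frames usually lower the translation of the main frame. Many genes also have several promoters, and an exon between an alternative first exon and the start codon exon can be joined or passed over.

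The inclusion level ψ is the estimated fraction of a gene's transcripts over the event that carry the exon. SNRPB2 itself had no skipped exon event in the files, so the knockdown could not be checked. Of the markers looked for, VIM, KRT18, EPCAM, CDH1 and PECAM1 had no event either. The adhesion receptor CD44, abundant in this line, had 2390 reads scaled to library size (RPM, over 1 event per gene) in siSNRPB2 and 2732 in siCtrl, and the leukocyte gene PTPRC had 0.492 and 2.77. The 1441 exons were covered by 170725 inclusion and 106700 skipping reads in siSNRPB2, and by 192446 and 118901 in siCtrl. Informative reads per exon ran from 20 to 14479 in siSNRPB2 (median 80) and from 20 to 14321 in siCtrl (median 87), and the authors' interval of ψ had a median width of 0.08 in both.

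Exons were called by the authors' Bayes factor and the size of the ψ difference. The called exons with the strongest read evidence, 5 per direction by Fisher's exact test, were placed in an annotated transcript where they lie in the leader. In RWDD1, CIB1 and TRIM59 the upstream flanking exon of the event holds coding sequence in another transcript. Whether reads on these events came from leaders was not tested. Of the 10 exons, that of PRKCD held no ATG and 9 did. The first ATG of each is printed with 6 bases before it and 4 after it, in lower case with the ATG in capitals, as found on the transcript strand in the GENCODE sequences (hg38).
NIPA2 exon 2: ctttaaATGagaa
NIPA2 exon 3: cctctgATGtcct
MIOS exon 2: ttggatATGtgca
EVA1A exon 3: tggctgATGccaa
EVA1A exon 2: agcactATGagtc
CIB1 exon 4: tcaaggATGactt
TRIM59 exon 3: acaaagATGtgag
RWDD1 exon 2: atataaATGgact
ITGB1 exon 2: agtttgATGtact
None of these 9 ATGs combined a purine 3 bases before the ATG with a G directly after it, the context that favours initiation in vertebrates. Each of the 9 frames met a stop codon before the main start codon. The frame of TRIM59 held 1 codon and that of ITGB1 2 codons before the stop, while those of NIPA2 exon 2 and RWDD1 held 35 codons each. TRIM59 had a second ATG 5 nt ahead of the start codon, whose frame ran past it.

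**Figure D1:**
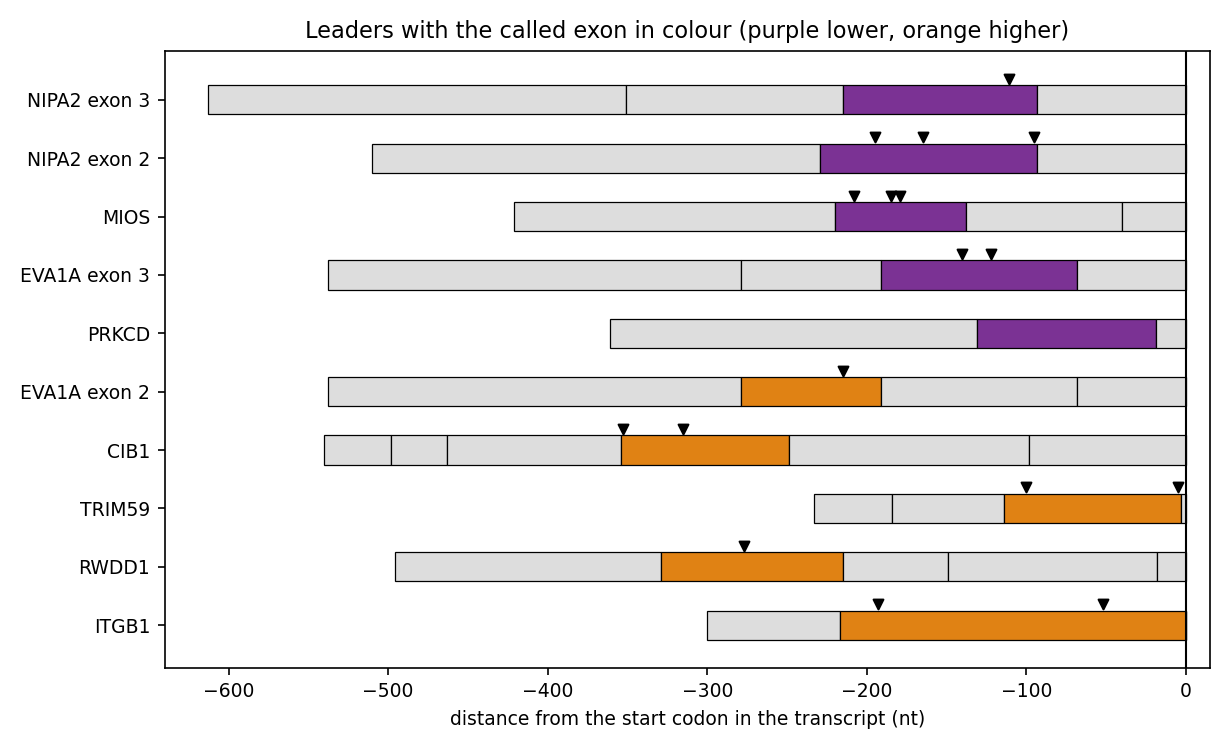
Leaders of the 10 exons with the strongest read evidence, each in an annotated transcript. They are drawn to scale from the 5′ end to the start codon at 0 (x axis, distance in nt). Boxes are exons, the called exon is coloured (purple lower, orange higher in siSNRPB2) and triangles are its ATGs. The exon of ITGB1 took up 72.3% of its leader and that of EVA1A exon 2 took up 16.4%.

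An exon was called when the authors' Bayes factor, the evidence for a ψ difference over none, was at least 10 and ψ differed by at least 0.1. Of the 1441 exons, 271 in 225 genes were called (18.8%), against 14.7% of all tested exons. Lower inclusion in siSNRPB2 was called for 140 (9.72%, against 7.61% of all tested exons) and higher inclusion for 131 (9.09%, against 7.13%). Calls in the 2 directions were thus close to even, and the median ψ difference over the 1441 exons in the authors' deposited table was 0. Among called exons the median difference in that table was -0.31 for the lower and 0.26 for the higher ones, and 34 differed by at least 0.5.

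The 5′ UTR exons had a lower median ψ than all tested exons together, at 0.26 in siSNRPB2 and 0.24 in siCtrl against 0.81 and 0.82. Over the 1985 exons that hold a start codon it was 0.95 and 0.96. Low inclusion was not particular to 5′ UTR exons. Median ψ was 0.205 and 0.19 in 2130 other annotated exons without coding sequence. In 649 exons absent from GENCODE it was 0.22 and 0.2. Mean ψ over both files was between 0.1 and 0.9 for 43.9% of the 5′ UTR exons, 34.2% of the start codon exons and 37.0% of all tested exons. Calls fell mainly in that range: within it 39.0% of the 5′ UTR exons were called, against 32.6% of start codon exons and 36.4% of all tested exons. Below 0.1 and above 0.9 the called share of 5′ UTR exons was 3.78% and 1.43%. Over all tested exons those shares were 3.52% and 1.27%. Within each range the called shares of 5′ UTR exons and of all tested exons thus lay closer together than 18.8% and 14.7%, and their difference was not tested.

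**Figure D2:**
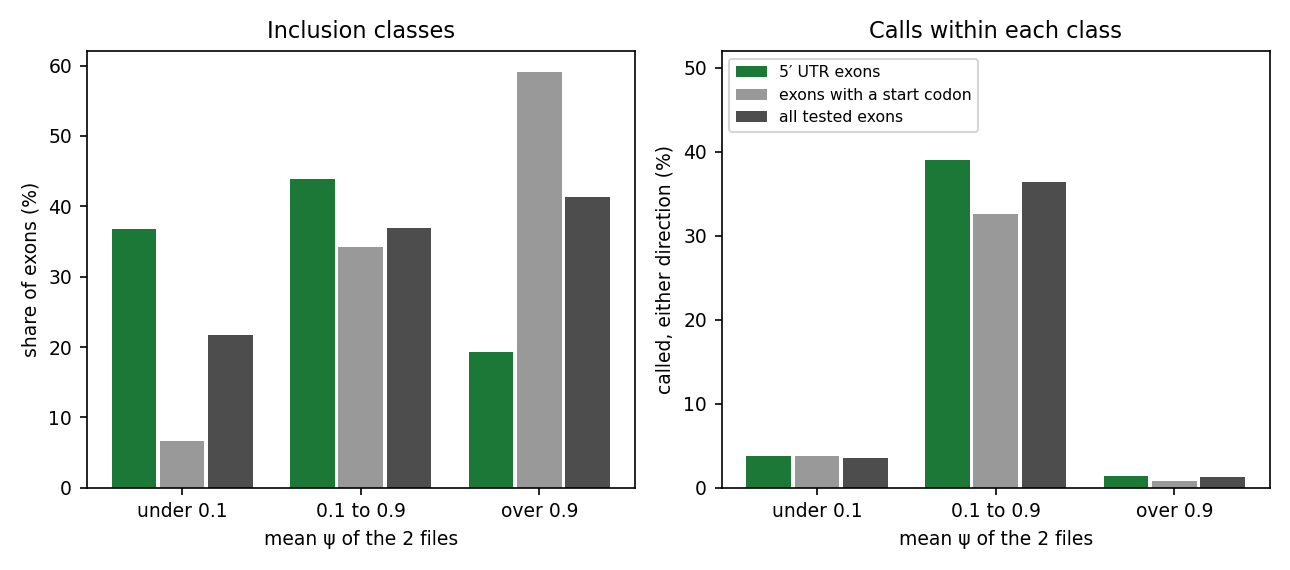
Share of exons by mean ψ (left, percent of the set) and share called in either direction within each range (right, percent) for 5′ UTR exons, exons with a start codon and all tested exons. 5′ UTR exons are more often under 0.1 (36.7%) than all tested exons (21.8%), and calls sit in the middle range in all 3 sets.

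**Figure D3:**
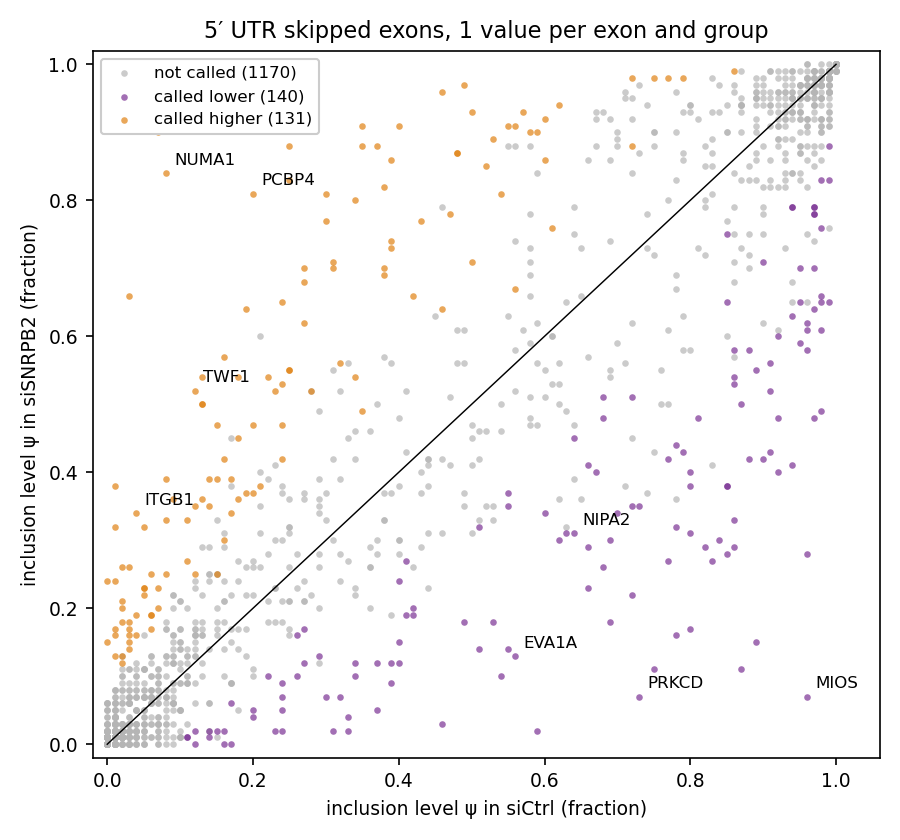
ψ of the 1441 5′ UTR exons in siSNRPB2 (y axis) against siCtrl (x axis), both as fractions, 1 point per exon, coloured by call. The 140 lower and 131 higher exons spread to similar distances on both sides of the line of equal ψ, and the 1170 uncalled exons crowd both corners.

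Counts of informative reads were also compared per exon with Fisher's exact test (2-sided, Benjamini-Hochberg over all 18682 exons). It passed 286 of the 1441 exons with a read share different by at least 0.1 (19.8%, against 10.6% of all tested exons), 142 lower and 144 higher. An exon without skipping reads in both files cannot pass. Such exons were 378 of the 1441 (26.2%) but 9550 of all tested exons (51.1%), so the 2 passing shares are not over like sets. Of the 271 called exons, 170 passed. This test compares the reads of these files, not the conditions. In 4436 near-constitutive exons, the split of reads between exon and flanks varied across the files by a median chi-square 10.3 times the value for counting alone. With reads divided by that factor, Fisher's exact test passed 0 of the 1441 exons at an adjusted p of 0.05 and 17 at an unadjusted p of 0.05, and 3 and 206 of all tested exons. The division leaves few reads for many exons, so that even a full switch can miss the threshold. TRIM59, with only inclusion reads in siSNRPB2 and only skipping reads in siCtrl, had an unadjusted p of 0.333 by this divided Fisher's exact test. The factor also came from exon and flank reads, not from skipping reads. The 0 therefore does not show that no exon differed.

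The exons with the smallest Fisher p among the lower calls lay in NIPA2, MIOS, PRKCD and EVA1A. NIPA2, a magnesium transporter, had 2 such exons between the same pair of flanking exons (chromosome 15, 22839655-22839790 and 22845146-22845267). For exon 2, ψ reached 0.31 in siSNRPB2 against 0.64 in siCtrl, from 181 and 277 inclusion reads. Reads that join the flanking exons directly numbered 108 in siSNRPB2 and 5 in siCtrl, and these same reads also count against exon 3, where ψ was 0.12 and 0.37. The adjusted p of Fisher's exact test was 9.14e-28 for exon 2 and 2.99e-31 for exon 3. Exon 2 of NIPA2 was in 4 events, and the median ψ difference over them was smaller, at -0.05.

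MIOS, a subunit of the GATOR2 complex upstream of mTORC1, had the largest shift of these exons. Its exon 2 (chromosome 7, 7567607-7567688) had ψ of 0.07 in siSNRPB2 and 0.96 in siCtrl, from 4 inclusion and 35 skipping reads for siSNRPB2 against 51 and 0 in siCtrl. The next exon of MIOS was called lower as well, with ψ of 0.78 and 0.97 and skipping reads of 23 and 0. PRKCD, protein kinase C delta, had an exon (chromosome 3, 53165104-53165215) with ψ of 0.07 in siSNRPB2 and 0.73 in siCtrl, from 4 inclusion and 42 skipping reads against 49 and 5. Skipping reads were thus the majority in siSNRPB2 and the minority in siCtrl for MIOS exon 2 and PRKCD. Adjusted p of Fisher's exact test was 2.89e-18 for MIOS exon 2 and 1.66e-15 for PRKCD.

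The higher calls with the smallest Fisher p lay in EVA1A, CIB1, TRIM59, RWDD1 and ITGB1. ITGB1, integrin β1, had a 217 nt exon (chromosome 10, 32953593-32953809) with ψ of 0.34 in siSNRPB2 and 0.04 in siCtrl, from 104 inclusion and 22 skipping reads against 14 and 39. CIB1, a calcium- and integrin-binding protein, had ψ of 0.19 and 0.06 from 174 inclusion and 233 skipping reads for siSNRPB2 against 74 and 365 in siCtrl. TRIM59, of the TRIM family of ubiquitin ligases, had 24 inclusion and 0 skipping reads for siSNRPB2 against 0 and 24 in siCtrl, with ψ of 0.32 and 0.01. Reads that fit both isoforms, which MISO also uses, numbered 692 in siSNRPB2 and 581 in siCtrl. RWDD1 had ψ of 0.26 and 0.03, from 20 inclusion and 8 skipping reads for siSNRPB2 against 6 and 114 in siCtrl. Adjusted p of Fisher's exact test was 8.92e-11 for ITGB1, 1.64e-14 for CIB1, 6.37e-12 for TRIM59 and 1.71e-11 for RWDD1.

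**Figure D4:**
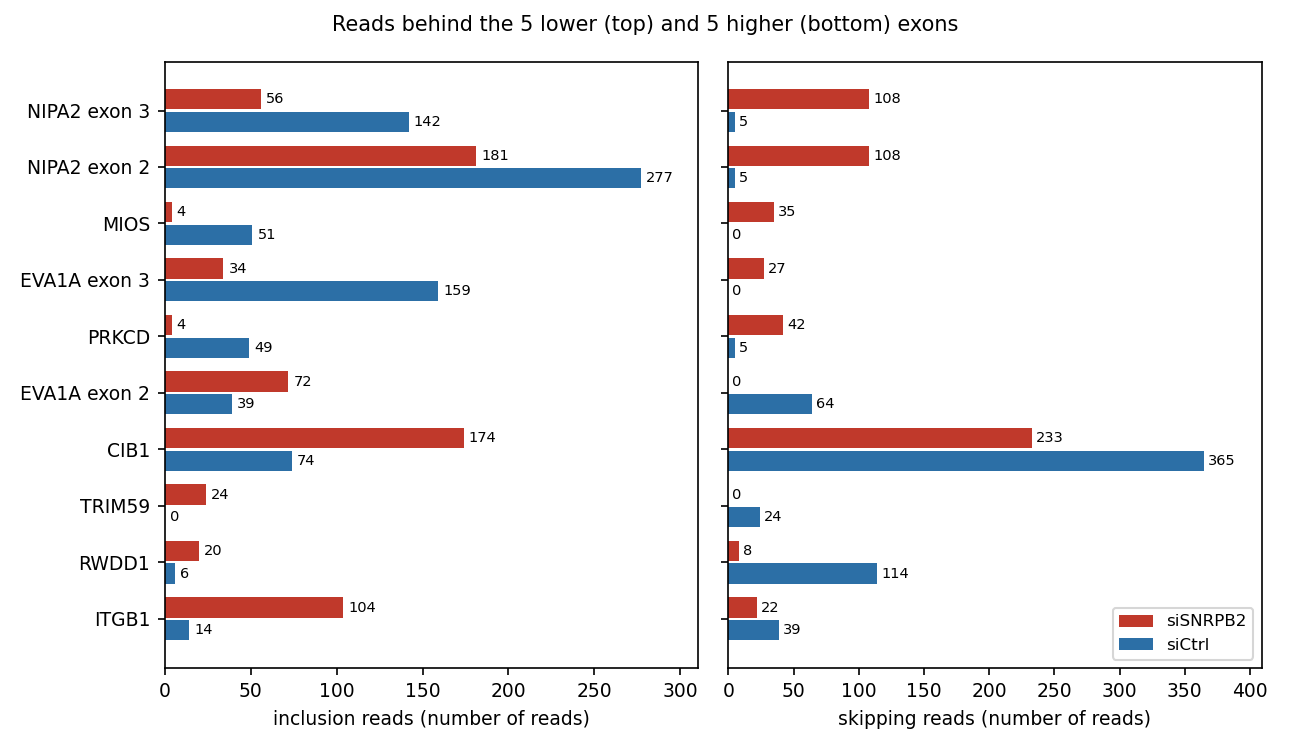
Inclusion (left) and skipping (right) reads, as numbers of reads on x, for the 10 exons with the strongest read evidence, siSNRPB2 bars above siCtrl bars. In the upper 5, skipping reads are more numerous in siSNRPB2, as in NIPA2 with 108 against 5. In the lower 5, inclusion reads are, as in ITGB1 with 104 against 14.

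Called exons with 50 or more informative reads per file and at least 1 skipping read were ranked by ψ difference, 1 exon per gene. The first group is the 10 exons with the largest loss of ψ. GPS1, a subunit of the COP9 signalosome, had ψ of 0.30 in siSNRPB2 and 0.84 in siCtrl, and coding sequence of another transcript overlapped its exon. NCOA1, a coactivator of steroid receptors, had 0.40 and 0.92, with skipping reads of 21 in siSNRPB2 and 2 in siCtrl. TFPI, the inhibitor of the tissue factor pathway of coagulation, had 0.49 and 0.98. By the share of inclusion reads the difference was -0.179 in TFPI, -0.276 in GPS1 and -0.347 in NCOA1. A second exon of TFPI between the same flanking exons had 0.38 and 0.85.

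The group also held enzymes. BDH1, the mitochondrial 3-hydroxybutyrate dehydrogenase, had ψ of 0.26 in siSNRPB2 and 0.68 in siCtrl, with a median difference of -0.24 over its 2 events. HMGCS1, the cytosolic HMG-CoA synthase of cholesterol synthesis, had 0.35 and 0.72, with skipping reads of 23 and 2. ELOC, elongin C, had ψ of 0.32 and 0.78, but its skipping reads were 2 and 3 and Fisher's exact test gave an adjusted p of 1. ARMCX5 had 0.61 and 0.98, TMUB2 0.50 and 0.87, and ZNF417 0.14 and 0.51. ZNF417 shares sequence with near-identical zinc finger genes, so its reads are uncertain.

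The 10 largest gains under the same conditions began with PCBP4. PCBP4, a poly(rC)-binding protein, had ψ of 0.81 in siSNRPB2 and 0.20 in siCtrl, from 115 inclusion and 7 skipping reads against 44 and 20. TWF1, the actin-binding protein twinfilin 1, had 0.52 and 0.12, from 79 inclusion and 54 skipping reads against 13 and 72. CABYR, a calcium-binding protein first described in sperm, had 0.38 and 0.01, from 30 inclusion and 27 skipping reads against 0 and 58. In TWF1 and CABYR skipping reads were the majority in siCtrl alone.

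ANAPC16, a subunit of the anaphase-promoting complex, had ψ of 0.86 in siSNRPB2 and 0.39 in siCtrl. The small GTPase RHOC had 0.80 and 0.34, with skipping reads of 1 and 37, and coding sequence of another transcript overlapped its exon. TCIRG1, a subunit of the vacuolar proton pump, had 0.71 and 0.31, with an adjusted p of 0.0694 by Fisher's exact test. VIPAS39, a protein of endosomal trafficking, had 0.93 and 0.57, and coding sequence of another transcript overlapped its exon. PILRB, an immune-type receptor gene with read-through transcripts over the same exon, had 0.68 and 0.27. MATR3, the nuclear RNA-binding protein matrin 3, had 0.91 and 0.35 with skipping reads of 1 and 0, and an exon of SNHG4 overlapped it. The share of inclusion reads among informative reads differed by less than ψ in several of these exons. That difference was -0.0049 in MATR3, 0.0314 in ANAPC16, 0.106 in PILRB, 0.114 in TCIRG1, 0.14 in VIPAS39 and 0.255 in PCBP4.

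**Figure D5:**
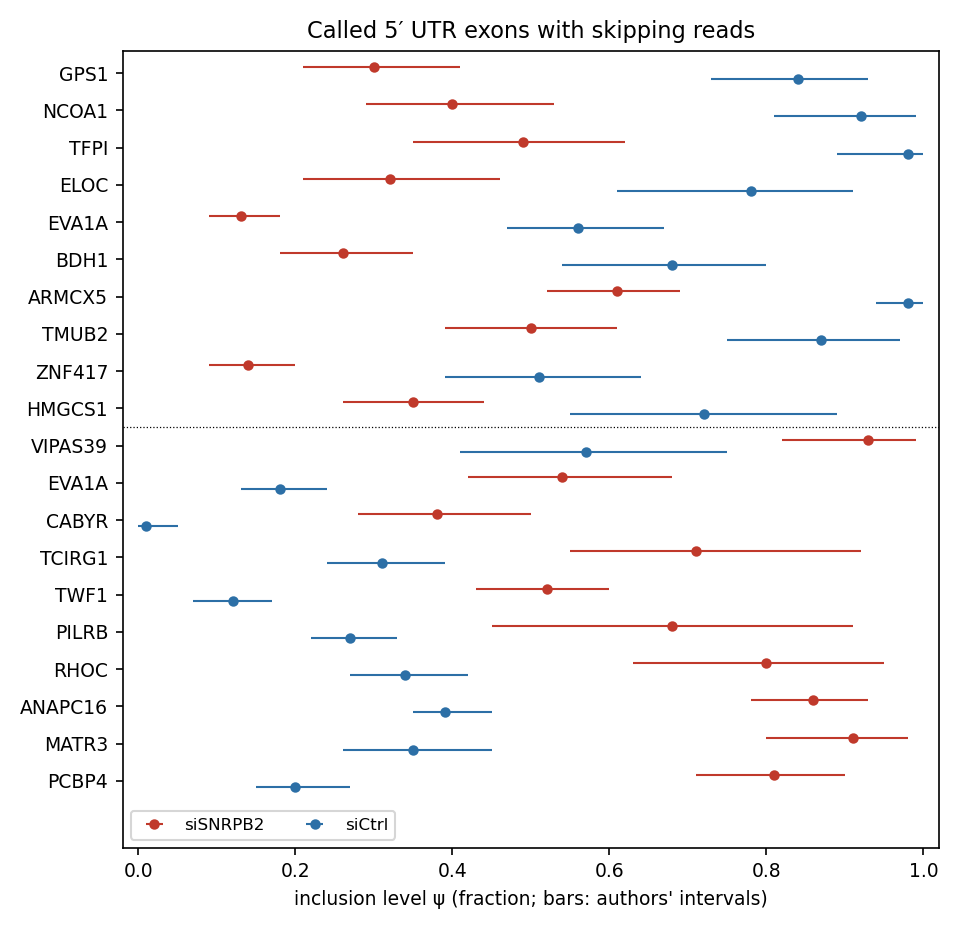
ψ (x axis, fraction) of exons with the 10 largest losses (above the dotted line) and 10 largest gains (below it), taken 1 per gene. The siSNRPB2 point lies above the siCtrl point, and bars are the authors' intervals. Intervals of the groups do not overlap in any of these exons, for example 0.29 to 0.53 in siSNRPB2 against 0.81 to 0.99 in siCtrl for NCOA1.

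Of the 271 called exons, 25 of the lower and 21 of the higher lacked skipping reads in both files. Their ψ came from inclusion reads relative to reads on the flanking exons. CEACAM19 had ψ of 0.43 in siSNRPB2 and 0.91 in siCtrl with 73 and 170 inclusion reads. WDR53 had 0.61 and 0.96, and coding sequence of another transcript overlapped its exon. ZNF142, whose exon overlaps BCS1L on the other strand, had 0.52 and 0.91. Higher were CANT1 (0.70 and 0.27), the mitotic checkpoint gene MAD1L1 (0.77 and 0.43), RCBTB1 (0.69 and 0.38) and the ubiquitin ligase ARIH2 (0.86 and 0.60). MAD1L1 had 242 inclusion reads in each file, and flanking or shared reads of 275 in siSNRPB2 and 489 in siCtrl. The exon of ARIH2 was in 5 events, and the median ψ difference over them was 0.00.

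In 217 genes, 5′ UTR exons were measured at several separate places of the leader. Exons were called at several of these places in 14 of the 217 genes. Calls were all lower in 7 genes (ANXA2, ATG13, BCS1L, MIOS, NIPA2, TFPI and ZCCHC8), higher in NUMA1, and in both directions in 6 (CANT1, EVA1A, FAM156A, FANCI, MRPL55 and NRIP1). In ANXA2, ATG13, NIPA2, NUMA1 and TFPI all called exons lay between the same pair of flanking exons and shared their skipping reads. ATG13, of the autophagy initiation complex, had exons with ψ of 0.28 and 0.70 in siSNRPB2 against 0.96 and 0.95 in siCtrl, and the same 16 and 0 skipping reads stood behind both. ANXA2, annexin A2, had 79 direct flank-to-flank reads in siSNRPB2 and 72 in siCtrl.

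EVA1A, a regulator of autophagy and cell death, had adjacent exons called in opposite directions. Its exon 3 (chromosome 2, 75522365-75522487) had ψ of 0.13 in siSNRPB2 and 0.56 in siCtrl, from 34 inclusion and 27 skipping reads against 159 and 0. Its exon 2 (75526112-75526199) had 0.54 and 0.18, from 72 inclusion and 0 skipping reads against 39 and 64. The event of exon 2 is flanked by exon 3, so reads joining exon 1 to exon 3 count against exon 2 and for exon 3. Those reads numbered 0 in siSNRPB2 and 64 in siCtrl. Adjusted p of Fisher's exact test was 1.28e-15 for exon 3 and 5.56e-18 for exon 2 of EVA1A. Each was in 2 events, over which the median ψ difference was -0.23 for exon 3 and 0.21 for exon 2.

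FANCI and NRIP1 had the same kind of opposite calls. FANCI, of the Fanconi anaemia DNA repair pathway, had ψ of 0.42 in siSNRPB2 and 0.16 in siCtrl for exon 2 and 0.32 and 0.51 for exon 3. NRIP1, a corepressor of nuclear receptors, had 0.83 and 0.99 for exon 2 and 0.90 and 0.59 for exon 3. MRPL55, a mitochondrial ribosomal protein, had overlapping exons called in opposite directions. Its long form of 585 nt had 0.98 and 0.79, while a short form that shares one border had 0.15 and 0.89. The long form covers the short form, the intron ahead of it and the upstream flanking exon of the short form's event. The ψ values of the 2 forms are thus over different flanking exons. Over the 2 events of the long form the median difference was 0.10.

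None of the 6 exons with the most informative reads was called. DDX5, EI24 and CDK4 had ψ of 1 in siSNRPB2 and in siCtrl. YWHAE, a 14-3-3 protein, had 144 inclusion and 5300 skipping reads for siSNRPB2 against 280 and 5778 in siCtrl, with ψ of 0.02 and 0.04. The chromatin protein HMGA1 had 0.23 and 0.26. For DDX5, EI24 and CDK4, coding sequence of another transcript overlapped the exon.

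Middle ψ was also seen without a call. In the 5 uncalled exons of ψ 0.2 to 0.8 with the most skipping reads, SEC11A of the signal peptidase had 0.22 in siSNRPB2 and 0.20 in siCtrl, and AZIN1, the antizyme inhibitor, had 0.42 and 0.46. The kinase PAK4 had 0.72 and 0.75, from 789 inclusion and 230 skipping reads against 1154 and 280. MORF4L2 had 0.23 and 0.23 (a median difference of -0.24 over its 4 events), and NBPF11, of a family of near-identical copies, 0.48 and 0.40. Differences of these 5 in the events kept were thus at most 0.08, and a missing call does not show equal inclusion.

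Of the genes listed for a studied role of their leader, 5 were measured and 3 were called. HMGCS1 was lower, as given above. XIAP, the inhibitor of apoptosis, had ψ of 0.42 in siSNRPB2 and 0.24 in siCtrl, but over its 2 events the median difference was -0.03. ATF5, a stress transcription factor under upstream frame control, had 0.04 and 0.01, and EIF4G2, a translation factor, 0.01 and 0.00, both uncalled.

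Wider gene groups were taken by the stems of gene symbols (such as ZNF, RNF, SLC, MAPK or RPL). They hold parts of each gene class, and called genes of a class with another symbol are outside them, such as the kinase AKT1. Their measured 5′ UTR exons were counted without a test, beside 18.8% called over the 1441 exons. The zinc finger list had 78 exons, of which 7 were lower and 5 higher. ZBTB25 was lower, at 0.41 in siSNRPB2 and 0.66 in siCtrl, with a median difference of -0.15 over its 2 events. The ubiquitin and proteasome list had 45 exons, with 3 lower (RNF41, 0.62 and 0.96, and RNF167, 0.70 and 0.97, among them) and 5 higher, among them the proteasome subunit PSMA1 at 0.92 and 0.60. The exons of RNF41 and RNF167 had 0 skipping reads in both files. Over the 4 events of the RNF167 exon the median difference was -0.14.

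The small GTPase list had 24 exons, with 0 lower and 6 higher, and those 6 lay in 3 genes. Besides RHOC they included ARHGEF28 (0.54 in siSNRPB2 and 0.22 in siCtrl). Solute carriers had 27 exons, with 4 lower and 3 higher, in 4 genes. The 3 higher exons were overlapping forms of 1 exon of SLC29A1. SLC7A6, an amino acid transporter, had 0.43 and 0.79, SLC35E2A, which has a near-identical copy and 0 skipping reads in both files, 0.51 and 0.72, and SLC29A1, the nucleoside transporter ENT1, 0.36 and 0.13. The kinase list had 32 exons, with 2 lower and 2 higher, such as MAPK9 (JNK2) at 0.58 and 0.88 and STK40 at 0.67 and 0.56.

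The translation list had 41 exons, with 5 lower and 9 higher. These 14 calls lay in 7 genes, and 5 of them were exons of MRPL55. The ribosomal protein gene RPL17 had 0.47 in siSNRPB2 and 0.15 in siCtrl, with an antisense gene over the exon, and the elongation factor subunit EEF1D had an exon called higher. The RNA processing list had 30 exons, with 1 lower (HNRNPC, 0.24 and 0.40) and 2 higher (HNRNPH1, 0.36 and 0.09, among them). The short lists of phosphatase families (15 exons), respiratory chain and mitochondrial import genes (11) and chromatin regulators (9) had 0 called by Bayes factor and ψ difference. Fisher's exact test passed 1 exon in each of these 3 lists. Phosphatase genes outside the list were called lower, among them INPP1 at 0.19 in siSNRPB2 and 0.42 in siCtrl.

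The measured exons were mostly early ones. They were exon 2 of the transcript in 1032 cases (71.6%), exon 3 in 281, a later exon in 121 and exon 1 in 7. The downstream flanking exon held the start codon in 1106 (76.8%). The upstream flanking exon was a 5′ UTR exon, coding in no transcript, in 979. Median length was 116.5 nt for the lower, 138 nt for the higher and 122 nt for the uncalled exons, and median GC content was 49.7%, 53.4% and 50.4%. The upstream intron had a median of 1519.5 nt, 1938 nt and 2814 nt in these groups, and the downstream intron 4429 nt, 2256 nt and 3670 nt. The median leader measured 420 nt with a lower exon and 276.5 nt without it. For higher exons these lengths were 407 nt and 228 nt.

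Upstream ATGs were common in these exons. The letters ATG, searched on the transcript strand, occurred in 67.9% of the lower exons, 72.5% of the higher and 74.4% of the uncalled ones, against 71.4% of 8302 internal 5′ UTR exons annotated in GENCODE. At 88 to 176 nt of length the shares were 76.1% of lower, 75% of higher and 75.7% of annotated exons. For 15.7% of the lower and 25.2% of the higher exons, the exon held the leader's only ATGs, against 19.6% of the uncalled exons. Of the 2677 ATGs in all 1441 exons, 2321 opened a frame that closed ahead of the main start codon (86.7%), with a median of 11 codons, and 301 opened a frame that ran past it. A purine 3 bases before together with a G directly after was found for 17.2% of the ATGs in lower, 17.4% in higher and 16.6% in uncalled exons. Overlapping exons share ATGs, and none of these shares was tested.

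Reads on the whole event, scaled as RPM, gave a level per gene. In bulk RNA, fewer cells of a kind and less RNA per cell cannot be told apart in such levels. The median log2 ratio of siSNRPB2 over siCtrl was 0.03 in the 120 genes with a lower exon and -0.10 in the 111 with a higher exon, against 0.02 in all 954 genes with a measured 5′ UTR exon and 0.01 in 10415 genes. Below and above 0 were 57 and 63 of the 120, 70 and 41 of the 111, and 450 and 504 of the 954. HMGCS1 had 95.7 RPM in siSNRPB2 and 46.2 in siCtrl, a log2 ratio of 1.05 with a counting interval of 0.93 to 1.17. VIPAS39 had 5.66 and 12.1, a log2 ratio of -1.09 with an interval of -1.44 to -0.74. This level came from another event than that of its 5′ UTR exon, where most read classes went the other way. Inclusion reads there rose from 43 (siCtrl) to 95 (siSNRPB2), and reads that fit both isoforms from 19 to 35. Skipping reads fell from 7 to 0. The direction for VIPAS39 thus depended on the event, and its interval does not cover this. NIPA2 had 112.1 RPM in siSNRPB2 and 107.4 in siCtrl, and MIOS had 67.2 and 54.7.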

How the data were processed

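Total RNA of 4 libraries was sequenced with a stranded kit, per the labels. The submitters' processing notes name STAR 2.7 as a tool and hg38 as the build. Per the file headers, the authors' ψ came from MISO and was deposited as a fraction with an interval and with read numbers (counts) per class of compatibility. Their deposited comparison gives the ψ difference, a signed score (siSNRPB2 minus siCtrl), next to a Bayes factor, a ratio that reaches at most 1e+12. Not given in the sources used here are the MISO version, its events, what share the interval covers and how libraries were pooled.

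Per exon, the event with the most informative reads was kept. Exon classes, leaders and ATGs came from GENCODE release 29 transcripts (hg38). Calls needed 20 informative reads in each file, a Bayes factor of 10 and a ψ difference of 0.1. Fisher's exact test (scipy 1.17.1) was tested on simulated data. Reads per gene are those compatible with either isoform on the deepest event, with a pseudocount of 1. Their 95% intervals cover counting error only, and reads without molecular identifiers are not independent molecules. Named exons are, per direction, the 10 largest called ψ differences with 50 or more informative reads per file and a skipping read. The 4 largest without a skipping read were added, and both groups hold 1 exon per gene. The 5 smallest Fisher p per direction were added without that limit. The rule adds the 6 deepest exons, 5 uncalled exons of middle ψ, up to 3 called exons per gene list and the measured genes with a studied leader. Of the 14 genes with several called places, those outside this rule were chosen after their values were seen. AKT1 and INPP1 were named after their values were seen. The exons, lists and thresholds were chosen with earlier results of these data known. Some exons that the rule names are not reported here. Splice site scores were not analysed here.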

Additional observations from a re-analysis of the deposited data

Results flagged for a closer look

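On the events of the 1441 5′ UTR exons, 53.6% of reads in siSNRPB2 and 51.4% in siCtrl fitted neither isoform of the event. These reads are outside ψ and every count above, and they were seen because they form a class of their own in the deposited read numbers. Their part in the results was not tested.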

How the results depend on the processing

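Counts of lower and higher 5′ UTR exons (140 and 131) stayed within 1.5 times of these values, at 101 to 170 and 88 to 171, under the other thresholds, read minimums and overlap limits tried, with these exceptions. At 50 or more informative reads per file, 888 exons were measured, 84 were lower, 70 were higher and 159 passed Fisher's exact test. With exons of basic transcripts alone, 836 were measured and 69 were higher. With reads divided by the noise factor, which leaves few reads for many exons, 0 passed Fisher's exact test. The alternatives of leaving out exons that overlap another gene (136 and 111) and of keeping 1 exon per locus of overlapping exons (122 and 110) were chosen after seeing the data. Direction turned for MATR3 by the share of inclusion reads (-0.0049) and for XIAP by the median over events (-0.025) and by that share (-0.0482), and the cause was not tested. Of 67 named exons, the share of inclusion reads moved the difference of 41 by more than the mean half-width of its ψ intervals and that of 24 by less, and over the named exons with several events the median moved 12 by more and 13 by less. The read share went the other way in 9 of the 271 called exons. The median log2 ratio of reads per gene in genes with a called exon was -0.05, and -0.03 with reads summed over all events. Below 20 informative reads ψ is set by few reads, and the depth of single libraries is not known. No paired analysis was possible because the files hold 1 value per exon and group.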

Other observations

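Some 5′ UTR exons were measured in 1 file alone. This held for 301 events in siSNRPB2 alone, of which 16 had at least 20 informative reads, and for 257 in siCtrl alone, of which 8 did. The most informative reads among them were 39 in siSNRPB2 and 34 in siCtrl. NUMA1, a mitotic spindle protein chosen here after its values were seen, had exons with fewer than 50 informative reads in siSNRPB2 and large ψ values: 0.84 and 0.82 in siSNRPB2 against 0.08 and 0.38 in siCtrl, with the same 1 and 25 skipping reads behind both.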
